A study of Sus scrofa with 85 samples.

Results

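COX1, COX2, ATP8, ATP6, COX3 and CYTB are 6 of the 13 protein-coding genes of the mitochondrial genome. They were taken from a table of 31907 genes by their Ensembl identifiers. COX1 is ENSSSCG00000018075, COX2 ENSSSCG00000018078, ATP8 ENSSSCG00000018080, ATP6 ENSSSCG00000018081, COX3 ENSSSCG00000018082 and CYTB ENSSSCG00000018094. Their counts were followed in 85 RNA-seq libraries of 3 female mixed-breed Yorkshire-Swedish farm pigs, here the swine 1640, 1644 and 5385, whose age is not given in the sources used here. In each animal a balloon closed the distal left anterior descending coronary artery and was then deflated, so every group after baseline shares the occlusion, and all but the 0–1 h groups the reperfusion as well. No swine without an infarction was part of the series, and baseline libraries of the same 3 animals are the controls. Micro-EMB, biopsies of the left ventricle with a miniaturised needle device, gave 62 libraries. They comprise 6 of baseline, 6 of the infarcted (apical) and 3 of the non-infarcted (lateral) region at 0–1 h, 11 and 6 at 1–3 h, 9 and 6 at 2 days, and 9 and 6 at 14 days. Blood gave 23 libraries, 6 at baseline, 5 at 1–3 h, 6 at 2 days and 6 at 14 days. Libraries of a group came in part from the same swine, so a p-value over libraries measures the spread between samples of 3 animals.

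The mitochondrial genome is read into long RNAs from both strands, which are cut at the tRNAs where these lie between genes. ATP8, ATP6 and COX3 overlap in sequence, so no tRNA lies between them. COX1, COX2 and COX3 encode the catalytic core of cytochrome c oxidase (complex IV), which passes electrons from cytochrome c to oxygen. ATP6 encodes the membrane subunit that carries protons through the ATP synthase, and ATP8 a small subunit of its membrane part. CYTB encodes the cytochrome b of complex III, the step before cytochrome c. Heart muscle is dense in mitochondria, and these transcripts are among the most abundant of the tissue. In bulk samples, fewer cells of a type and less RNA per cell cannot be told apart.

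Total counts ranged from 3499443 to 16659110 in the 84 libraries used for tests, and 1 blood library of 2 days with 11505 counts was left out of them. The paper also excluded libraries that failed its quality control, libraries with blood contamination and outliers with raised collagen genes. The tests here left out a library only for its low total. How the libraries that the paper excluded relate to the classes below was not tested. The libraries differed in how evenly counts fell over genes. In 25 libraries, 15 of micro-EMB and 10 of blood, less than 7% of the counts fell on the 10 genes with the highest counts, and these are called even. In 2 micro-EMB libraries of swine 1644, of baseline and of the infarcted region at 0–1 h, those 10 genes took over 60%, and these are called dominated. The rest have what is called the other profile here. Leaving out the mitochondrial protein-coding genes changed this class in 0 libraries. Even libraries made up 5 of 6 of blood at baseline, 3 of 5 of blood at 1–3 h, 5 of 9 of the infarcted region at 2 days and 3 of 6 of the non-infarcted region at 1–3 h. No library of 0–1 h was even, nor was any of 14 days from the lateral region. The summed cardiomyocyte markers (9 genes found) lay at 651 to 18091 CPM, counts scaled to a common total per library, in the 15 even micro-EMB libraries, with a median of 5715. In the 45 micro-EMB libraries that were neither even nor dominated they lay at 82.8 to 79733 CPM with a median of 43711. The leukocyte markers (8 genes) had medians of 396 CPM in the even and 120.9 CPM in these 45 micro-EMB libraries. In blood the leukocyte median was 763 CPM in the 10 even and 3634 CPM in the other 12 libraries, and the cardiomyocyte median was 643 and 99.1 CPM. Even libraries of heart and blood thus lay closer to each other in both marker lists. Each result below is therefore given with all libraries and, where it changes, without the even and dominated ones.

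All 6 genes lie on the forward strand of the mitochondrial sequence, which is 16613 bases long in RefSeq's Sscrofa11.1, the build of the counts. COX1 spans chrMT:6511-8055 and COX2 chrMT:8203-8890. ATP8 spans chrMT:8959-9162, ATP6 chrMT:9120-9800, COX3 chrMT:9800-10583 and CYTB chrMT:15342-16481. The 3 genes ATP8, ATP6 and COX3 overlap in sequence. The last 43 bases of ATP8 are also the beginning of ATP6. ATP8 is printed because its ratio to COX1 was low in 1 swine (below), with the bases that it shares with ATP6 in capitals.
ATP8: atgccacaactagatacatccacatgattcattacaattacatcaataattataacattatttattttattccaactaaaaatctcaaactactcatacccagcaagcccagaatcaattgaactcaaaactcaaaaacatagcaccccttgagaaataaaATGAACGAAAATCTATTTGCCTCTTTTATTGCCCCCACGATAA
ATP6 and COX3 share a base, the capital in this stretch of chrMT:9780-9820.
ATP6 to COX3: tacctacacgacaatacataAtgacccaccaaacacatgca
A read on shared bases fits both genes. How the counting treated such reads, or reads that fit more than one place in the genome, is not given in the sources used here. Values per base below divide all counts of a gene by the number of its bases outside the overlaps. Reads on shared bases, where they were counted, thus remain in these values.

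Stretches of the mitochondrial genome have also been copied into nuclear chromosomes, and reads from the genes can fit such copies. In ATP8, 48.4% of all windows of 50 bases were found without a mismatch elsewhere in the nuclear assembly, and 94.8% with at most 2 mismatches. The closest copy of ATP8 lies on the forward strand of chromosome 9, where 196 bases were 98.5% identical to it. It is shown with the bases that differ from ATP8 in capitals.
chr9:4701993-4702188: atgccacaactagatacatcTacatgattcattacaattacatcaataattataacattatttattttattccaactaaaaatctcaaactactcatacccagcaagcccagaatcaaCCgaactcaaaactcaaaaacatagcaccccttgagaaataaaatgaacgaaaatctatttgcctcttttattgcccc
The differences, with the ATP8 base in front and positions counted from 1 at its first base, are C21T, T119C and T120C. The same stretch of chromosome 9 held pieces of COX1 and COX2. Over the whole nuclear assembly, the windows found without a mismatch came to 28.7% for COX1 and 24.7% for COX2. For ATP6, COX3 and CYTB they came to 0.633%, 3.81% and 1.01%. ATP8 was thus the gene with the largest part of its sequence found again in the nuclear genome, and ATP6 the gene with the smallest. Whether reads of the genes were lost to such copies or gained from them was not tested.

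**Figure D1:**
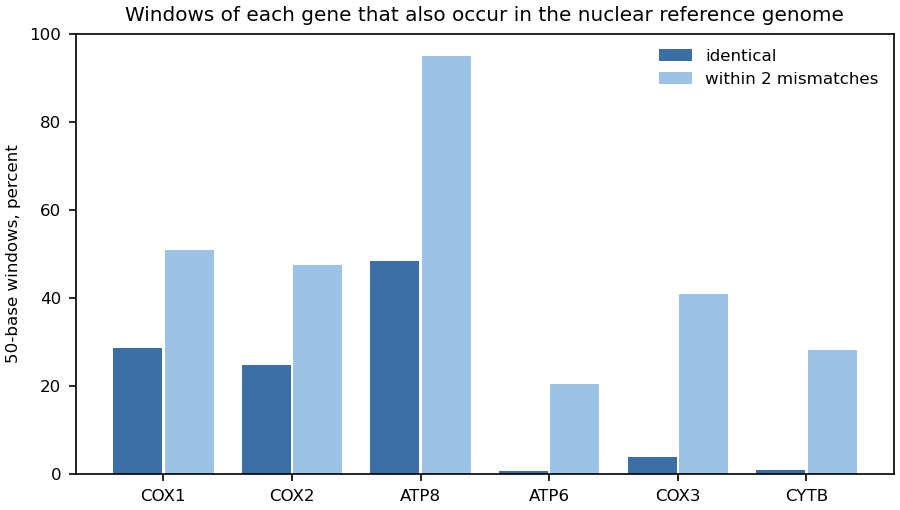
Percent of the 50-base windows of each of the 6 genes that the nuclear chromosomes of Sscrofa11.1 also hold, without a mismatch and with at most 2 mismatches. ATP8 has the highest bars of both kinds, 48.4% and 94.8%, and ATP6 the lowest, 0.633% and 20.6%.

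The share of all counts that fell on the 6 genes was higher in myocardium than in blood and varied widely between biopsies of the same group. In the 62 micro-EMB libraries it ran from 0.0927% to 3.64% with a median of 1.80%. In the 22 blood libraries used for tests it ran from 0.0476% to 0.782% with a median of 0.268%. Counting error was small beside these ranges, with a 95% Wilson interval of 0.0906% to 0.0948% at the lowest micro-EMB value and of 3.62% to 3.65% at the highest. Such intervals cover counting error only, since reads without molecular identifiers are not independent molecules. In the 45 micro-EMB libraries without the even and dominated ones the median was 2.08%, with a range of 0.352% to 3.64%. In the 15 even ones it was 0.534%, with a range of 0.0927% to 1.21%. The dominated libraries were at 0.318% and 0.646%. In blood the median was 0.444% in the 12 libraries that were not even and 0.0684% in the 10 even ones. Even libraries thus held a smaller part of their counts in these genes in both tissues, and the ranges of the classes overlapped.

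At baseline the micro-EMB held 0.318% (the dominated library), 0.575% (even), 0.674%, 2.23%, 2.56% and 2.68%. The lower 3 of these 6 values came from swine 1644 and 1640, and the upper 3 from swine 5385 and 1640. In the infarcted region the medians were 1.62% at 0–1 h (range 0.441% to 2.02%), 1.93% at 1–3 h (0.0927% to 3.64%), 0.823% at 2 days (0.351% to 2.80%) and 1.76% at 14 days (0.352% to 2.60%). The low median of 2 days went with its 5 even libraries of 9. The other 4 libraries of that group had a median of 2.33%, beside 2.39% in the 4 baseline libraries without the even and the dominated one. In the non-infarcted region the 3 libraries of 0–1 h were at 2.05%, 2.35% and 3.03%. The medians were 0.488% at 1–3 h (0.142% to 3.18%, 3 of 6 even), 2.01% at 2 days (0.534% to 3.36%) and 1.95% at 14 days (1.29% to 3.24%). Every group of the heart overlapped with baseline. In blood, 5 baseline libraries were even and lay at 0.0476% to 0.0696%, and the sixth, of swine 1644, was at 0.444%. The blood libraries of 1–3 h held 0.0677%, 0.115%, 0.216%, 0.409% and 0.462%, of which the lower 3 were even. At 2 days they held 0.175%, 0.238% (even), 0.298%, 0.501% and 0.782%. At 14 days they ran from 0.0581% (even) to 0.491% with a median of 0.434%. The blood libraries that were not even were at 0.444% at baseline (1 library) and had medians of 0.435% at 1–3 h (2 libraries), 0.400% at 2 days (4) and 0.444% at 14 days (5).

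**Figure D2:**
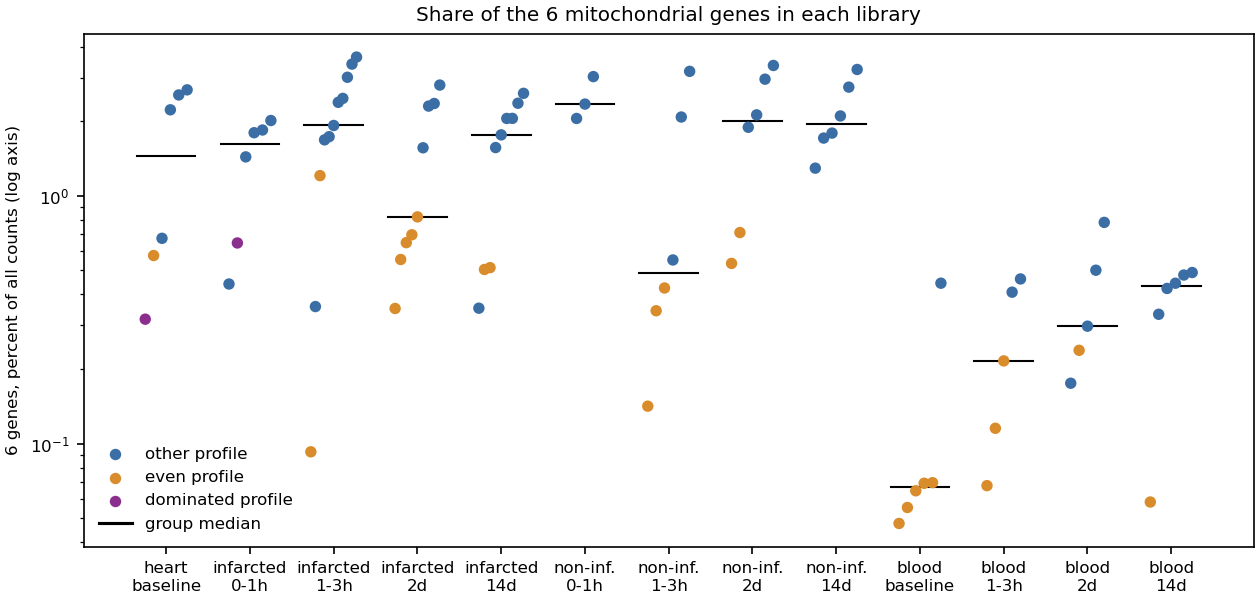
Percent of the counts of each library on the 6 genes (vertical log axis) by group (horizontal axis), with a point for each library coloured by its profile and a line at the group median. The micro-EMB libraries lie between 0.0927% and 3.64% and the blood libraries used for tests between 0.0476% and 0.782%, with even libraries low in most of their groups.

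Among the 45 micro-EMB libraries, 5 held under 0.7% of their counts in the 6 genes, and the next held 1.29%. They were libraries of the infarcted region at 14 days (0.352%, swine 1644), 1–3 h (0.358%, swine 1644) and 0–1 h (0.441%, swine 5385), of the non-infarcted region at 1–3 h (0.551%, swine 1644) and of baseline (0.674%, swine 1644). In the same order their fibroblast markers (6 genes, collagens and matrix proteins among them) summed to 63075, 83627, 37660, 29050 and 39787 CPM. Over the 45 libraries this sum ran from 1266 to 83627 CPM with a median of 6739. Their cardiomyocyte markers summed to 920, 82.8, 559.5, 1701 and 158.4 CPM, beside a median of 43711. The 5 libraries were those with the ranks 40, 41, 42, 44 and 45 of 45 for the cardiomyocyte sum and with the ranks 1, 2, 3, 4 and 6 for the fibroblast sum. In the order of the libraries above, the endothelial sum had the ranks 44, 45, 42, 41 and 3, and the leukocyte sum the ranks 36, 16, 2, 1 and 14. The part of these cells in the shares was not tested.

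COX1 was the most counted of the 6 genes in 79 of the 84 libraries in the tests. In the 45 micro-EMB libraries it was between the 5th and the 58th most counted gene of a library, with a median rank of 6. Its level had a median of 7226 CPM over all 62 micro-EMB libraries (165.4 to 15550) and of 1020 CPM over the 22 blood libraries (89.4 to 3241). ATP8, the shortest gene, was the least counted, with medians of 110.8 CPM (4.57 to 828) and 13.2 CPM (0.801 to 197). On the log2 scale the medians of COX1 were 12.82 in micro-EMB and 9.99 in blood, and those of ATP8 were 6.79 and 3.68. COX2, ATP6, COX3 and CYTB had CPM medians of 2253, 3034, 2240 and 2742 in micro-EMB and of 381, 452, 372 and 431 in blood.

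Per kilobase of a gene's own bases the order differed from that of the raw levels. In the 45 micro-EMB libraries the medians were 5675 CPM per kilobase for COX1, 5196 for ATP6, 3708 for COX2, 3297 for COX3, 2913 for CYTB and 2038 for ATP8. The ranges of neighbours in this order overlapped, with 653 to 10064 for COX1 and 973 to 9172 for ATP6. Within a library, the per-kilobase level of ATP6 over that of COX1 had a median log2 ratio of -0.05 (-0.82 to 0.63). That of COX2 was -0.47 (-1.11 to 0.47), that of COX3 -0.68 (-1.07 to 0.03) and that of CYTB -0.97 (-1.50 to -0.19). CYTB, at the far end of the forward strand, was thus below COX1 in all 45 libraries. In the 15 even micro-EMB libraries the ratios were higher. The medians were 0.67 for ATP6 (0.31 to 1.82), 0.04 for COX2 (-0.22 to 0.88), -0.26 for COX3 (-0.57 to 0.48) and -0.03 for CYTB (-0.40 to 1.09). Blood differed in the same way, with ATP6 at -0.07 in the 12 libraries that were not even and 0.80 in the 10 even ones, and CYTB at -1.21 and 0.03. For CYTB in blood the ranges were -1.45 to -0.68 and -1.02 to 1.06. The 6 genes together made up 60.4% of the counts of the 13 mitochondrial protein-coding genes in the 45 micro-EMB libraries (47.4% to 65.1%) and 46.7% in the even ones (36.7% to 50.8%). In blood these medians were 62.9% and 45.5%. The mitochondrial counts of even libraries thus fell in larger part on the 7 complex I genes, and why was not tested.

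**Figure D3:**
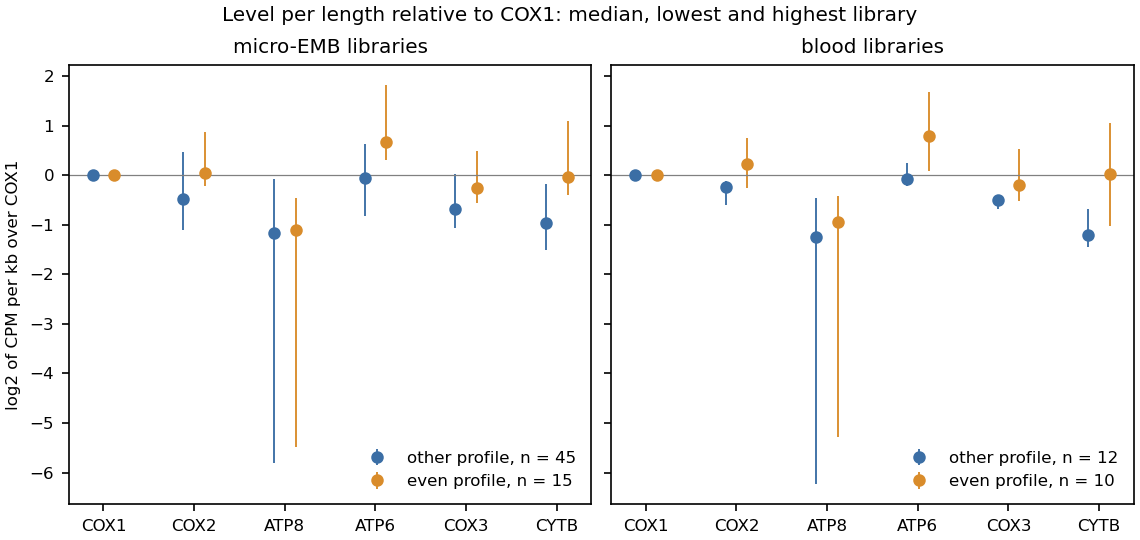
Log2 ratio of the per-kilobase level of each gene to that of COX1 (vertical axis) in micro-EMB and blood libraries of the other and the even profile, with points at the median and bars from the lowest to the highest library. For CYTB the median rises from -0.97 in the 45 micro-EMB libraries to -0.03 in the 15 even ones, and for ATP6 from -0.05 to 0.67.

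The infarcted region was compared with baseline to see whether the transcripts moved after the occlusion. Within myocardium, none of the 6 genes passed an adjusted p of 0.05 in edgeR's quasi-likelihood test at any timepoint or between regions. At 0–1 h, COX1 lay at 1603 to 8274 CPM in 6 libraries (median 6728) beside 1334 to 10404 CPM at baseline (median 6108). The 6 genes had log2 fold changes of -0.45 to 0.87, and 0 of 6 were called beside 0% of the 22526 genes tested (487 of them with an unadjusted p under 0.05). At 1–3 h, COX1 lay at 165.4 to 14735 CPM in 11 libraries (median 7545). The log2 fold changes were 0.47 for COX1 (SE 0.88), 0.50 for COX2 (SE 0.74), 1.16 for ATP8 (SE 1.04), 0.45 for ATP6 (SE 0.73), 0.42 for COX3 (SE 0.75) and 0.27 for CYTB (SE 0.71). All 6 were above 0, all but that of ATP8 were below their SE, and 0 of 6 were called, beside 0.471% of all genes (0% with the swine as a block, and 1.62% without even and dominated libraries). At 2 days, COX1 lay at 1179 to 12230 CPM in 9 libraries (median 2450). The log2 fold changes ran from -0.73 for CYTB (SE 0.72) to 0.74 for ATP8 (SE 1.05), and 0 of 6 were called beside 0% of all genes (1311 with an unadjusted p under 0.05). Without the even and dominated libraries the median over the 6 genes at 2 days was 0.13 in place of -0.47. At 14 days, COX1 lay at 1009 to 10348 CPM in 9 libraries (median 6814). The log2 fold changes ran from -0.26 to 0.53, and 0 of 6 were called beside 0.0799% of all genes.

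In the non-infarcted region, which shares the baseline libraries, the groups also overlapped with baseline for every member. At 0–1 h the 3 libraries had COX1 at 8768, 10434 and 12211 CPM. The log2 fold changes ran from 0.46 for CYTB (SE 1.00) to 1.72 for ATP8 (SE 1.39), and 0 of 6 were called. At 1–3 h, COX1 lay at 390 to 13423 CPM in 6 libraries (median 1689). The log2 fold changes ran from -0.75 for CYTB (SE 0.83) to 0.35 for ATP8 (SE 1.18). The lower 3 libraries of that group were the even ones, and without even and dominated libraries the median over the 6 genes was -0.03 in place of -0.56. At 2 days the log2 fold changes ran from -0.08 to 1.36 and at 14 days from 0.16 to 0.98. Without even and dominated libraries those of 14 days ran from -0.21 to 0.80, and 5 of the 6 were below 0. In each of these comparisons 0 of 6 genes were called, beside 0% of the 22570 genes tested (644, 903, 619 and 471 with an unadjusted p under 0.05, in order of time).

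The regions were compared at each time after baseline. At 1–3 h COX1 was 1.02 higher on the log2 scale in the infarcted region (SE 0.90), COX2 0.97 (SE 0.77), ATP8 0.80 (SE 1.09), ATP6 1.03 (SE 0.76), COX3 1.06 (SE 0.79) and CYTB 1.02 (SE 0.73). None of the 6 was called, beside 0.0133% of the 22611 genes tested. Of the libraries compared, 2 of 11 were even in the infarcted and 3 of 6 in the non-infarcted region, and without them the differences were 0.14 to 0.39, with 0 of 6 called beside 0.0663% of all genes. At 0–1 h the infarcted region was lower by 0.84 to 0.94, at 2 days by 0.62 to 0.78 and at 14 days by 0.29 to 0.46 on the log2 scale. These values were below their SE at 0–1 h and 14 days for all 6 genes. Without even and dominated libraries it was lower by 0.68 to 0.82 at 0–1 h, by 0.16 to 0.34 at 2 days and by 0.001 to 0.22 at 14 days. Of the libraries of 2 days, 5 of 9 were even in the infarcted and 2 of 6 in the non-infarcted region. In these 3 comparisons 0 of 6 members were called, beside 0% of all genes. Over the 12 comparisons within myocardium, no member had an unadjusted p under 0.05, and DESeq2 and limma-voom called 0 of 6 as well. The SEs of these differences were 0.71 to 1.43 on the log2 scale.

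In blood the 6 genes were higher after baseline when all libraries were used, with no call by edgeR. At baseline COX1 lay at 89.4 to 204.96 CPM in the 5 even libraries and at 1758 CPM in the sixth. At 1–3 h the 5 libraries had a range of 191 to 1864 CPM (median 808), at 2 days of 652 to 3241 CPM (median 1134) and at 14 days 6 libraries had 153.1 to 2019 CPM (median 1786). The log2 fold changes of the 6 genes ran from 1.00 to 1.25 at 1–3 h, from 1.76 to 2.21 at 2 days and from 1.38 to 2.11 at 14 days. The smallest adjusted p was 0.877, 0.327 and 0.143 in the same order. In each comparison 0 of 6 were called, beside 0% of the 23197 genes tested (184, 3444 and 8080 with an unadjusted p under 0.05). Of the members, 3 at 2 days and 2 at 14 days had an unadjusted p under 0.05, and DESeq2 called 5 of 6 at 14 days beside 14.6% of all genes. The classes of the libraries moved with these differences, since 5 of 6 baseline libraries were even and 1 of 5 and 1 of 6 at 2 and 14 days. Without even libraries, 1 baseline library remained and the median log2 fold changes were -0.11, -0.03 and -0.02. Without swine 1644, whose second baseline library was the 1 that was not even, all remaining baseline libraries were even. Then the medians were 2.99, 4.22 and 4.07, with 5, 6 and 6 of 6 called, beside 15.8%, 39.4% and 70.1% of all genes. The difference of blood from its baseline and the difference between even and other libraries cannot be told apart here.

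**Figure D4:**
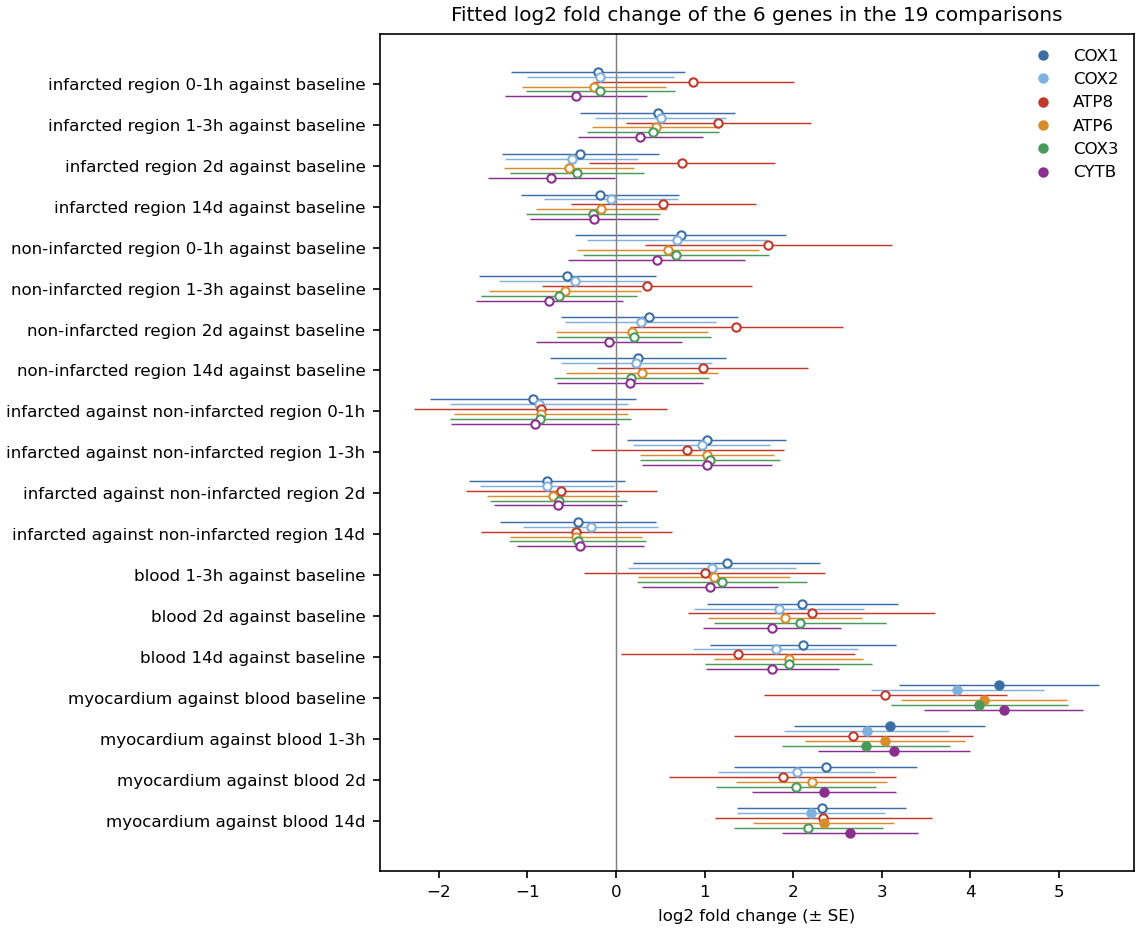
Log2 fold change of each of the 6 genes in the comparisons of timepoints, regions and tissues (horizontal axis: log2 fold change from edgeR with all libraries, bars: SE), with filled points where the adjusted p was at most 0.05. Within myocardium all values lie between -0.94 and 1.72, in blood over baseline between 1.00 and 2.21, and between myocardium and blood between 1.88 and 4.38.

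Myocardium, both regions together after baseline, was compared with blood at the 4 timepoints at which both were sequenced, and here members passed the test. At baseline CYTB lay at 484 to 5360 CPM in myocardium (median 2533) and at 134.4 to 572 CPM in blood (median 143.4). ATP6 lay at 422 to 4659 CPM in myocardium (median 2311) and at 118.6 to 686 CPM in blood (median 138.3). COX2 ran from 397 to 3518 CPM (median 1788) and from 64.4 to 718 CPM (median 93.8), and COX3 from 499.6 to 3347 CPM (median 1865) and from 65.1 to 624 CPM (median 82.9). ATP8 ran from 21.7 to 480 CPM (median 59.2) and from 0.801 to 85.6 CPM (median 9.06). The tissues overlapped for all 6 genes through the sixth blood library and the low myocardial ones. In the fit, CYTB was 20.8-fold higher in myocardium (log2 fold change 4.38, SE 0.90, adjusted p = 0.00209) and COX1 20.1-fold (4.33, SE 1.13, adjusted p = 0.0111). ATP6 was 17.8-fold higher (SE 0.94, adjusted p = 0.00385), COX3 17.2-fold (SE 1.00, adjusted p = 0.00657) and COX2 14.5-fold (SE 0.98, adjusted p = 0.00869). ATP8 was 8.21-fold higher (SE 1.37) and was not called (adjusted p = 0.199). Thus 5 of 6 members were called, all higher in myocardium, beside 6.39% of the 22904 genes tested, and 6.13% higher. CYTB lay at 148.3, 240.1, 404, 542 and 586 CPM in blood at 1–3 h, beside 260 to 5507 CPM in the infarcted (median 2995) and 318 to 4502 CPM in the non-infarcted region (median 895). At 1–3 h the folds ran from 6.39 for ATP8 to 8.82 for CYTB (adjusted p = 0.00728), and 5 of 6 were called beside 11.7% of all genes (6.64% higher). In blood at 2 days CYTB lay at 295, 330.0, 520.3, 612 and 899 CPM, beside 661 to 3675 CPM in the infarcted (median 1772) and 1238 to 4126 CPM in the non-infarcted region (median 3000.4). At 2 days the folds ran from 3.68 to 5.16, and CYTB alone was called (5.08-fold, adjusted p = 0.0358) beside 16% of all genes (6.99% higher). In blood at 14 days CYTB lay at 140.4 to 683 CPM (median 557), beside 624 to 4050.3 CPM in the infarcted (median 2584) and 1857 to 5679 CPM in the non-infarcted region (median 3422). At 14 days CYTB (6.25-fold, adjusted p = 0.00629), ATP6 (5.08-fold, adjusted p = 0.0224) and COX2 (4.59-fold, adjusted p = 0.0453) were called, beside 22.4% of all genes (10.3% higher). The median log2 fold change over the 6 genes was 4.13, 2.93, 2.12 and 2.33 in order of time, so it was lowest at 2 days. Without even and dominated libraries, with 1 blood library at baseline, it was 2.57, 2.85, 2.92 and 2.54. The difference between the tissues in the change from baseline was tested as such. The change from baseline in myocardium minus that in blood ran from -2.06 to -1.16 at 2 days on the log2 scale, with an adjusted p of 0.276 or more. It was called for 0 of 6 members at 1–3 h, 2 days and 14 days, beside 0%, 1.15% and 2.01% of all genes, and without even and dominated libraries it ran from -0.21 to 1.70 over the 3 timepoints.

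These values turned on the classes of the libraries. Without the even and dominated libraries, COX1 was 3.00 higher on the log2 scale in myocardium at 1–3 h (SE 0.90), 3.20 at 2 days (SE 0.67) and 2.53 at 14 days (SE 0.57). All members but ATP8 were then called at these timepoints, with 5, 5 and 5 of 6 beside 25.4%, 30.8% and 40.8% of all genes (14.1%, 17.8% and 21.3% higher). At baseline, where 1 blood library remained, COX1 was 2.67 higher on that scale (SE 1.25, adjusted p = 0.154) and 0 of 6 were called, beside 15.4% of all genes (7.51% higher). Markers of the tissues' cells were compared in the same fits. Of the cardiomyocyte markers, 8 of 9 were called higher in myocardium at each timepoint with all libraries, with median log2 fold changes of 7.15 to 8.31. Of the leukocyte markers, 1 of 6 was called lower in myocardium at baseline and 5 of 6 at each later time. With the swine as a block, ATP8 was called at baseline (log2 fold change 3.91, adjusted p = 0.0135), at 1–3 h (3.15, adjusted p = 0.0229) and at 14 days (2.48, adjusted p = 0.0293), and COX1 was no longer called at 1–3 h (adjusted p = 0.0581). Leaving out swine 1640 or swine 5385 ended all calls of members at baseline, and leaving out swine 1640 those at 1–3 h. Leaving out any swine ended those at 2 days, and swine 5385 those at 14 days. The calls over all genes moved as well. With a library or swine left out, 0% to 15.8% of all genes were called at baseline and 2.72% to 12.6% at 1–3 h. At 2 days it was 4.01% to 19.3% and at 14 days 8.84% to 25.0%.

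The ratios between the genes do not depend on how libraries are scaled, and none of their differences between groups passed the test used. The log2 ratio of each other member to COX1 was compared by exact two-sided permutation tests over libraries in 12 comparisons, the 8 of a region with baseline and the 4 of myocardium with blood. After Benjamini-Hochberg adjustment over the 60 tests, 0 passed. The 3 with an unadjusted p under 0.05 all compared myocardium with blood at baseline. The log2 ratio of COX2 to COX1 was -1.51 ± 0.42 in myocardium and -0.86 ± 0.35 in blood (SD, n = 6 and 6, exact permutation p = 0.0238, adjusted p = 0.649). The ratio of ATP6 to COX1 was -1.19 ± 0.42 and -0.34 ± 0.65 (exact permutation p = 0.0325), and that of COX3 was -1.50 ± 0.27 and -0.99 ± 0.40 (exact permutation p = 0.0260), with the same adjusted p. These are the groups in which 1 of 6 heart and 5 of 6 blood libraries were even. In the infarcted region at 1–3 h the ratio of COX2 to COX1 was -1.49 ± 0.47 (n = 11) beside -1.51 ± 0.42 at baseline (n = 6), and that of CYTB was -1.15 ± 0.64 beside -1.14 ± 0.51. Those tests set libraries of different swine side by side. With exact two-sided permutations within each swine, added after the values were seen, 0 of 60 passed the adjustment and 5 had an unadjusted p under 0.05, all of them differences of ATP8 to COX1. The smallest p was for the infarcted region at 14 days, where this log2 ratio was 0.41, 1.04 and 0.13 above baseline in swine 1640, 1644 and 5385 (exact permutation p = 0.002, adjusted p = 0.12). In the infarcted region at 2 days it was 0.59, 0.70 and 0.42 above baseline in the same order (exact permutation p = 0.038, adjusted p = 0.456). In the non-infarcted region it was 0.68, 0.56 and 0.78 above baseline at 1–3 h (exact permutation p = 0.0185, adjusted p = 0.370). Without the even and dominated libraries 0 of 60 passed as well, and 3 had an unadjusted p under 0.05. The smallest p that a permutation test can give grows as groups shrink. With the 1 blood library that remained at baseline, no ratio there could pass. In small groups a lone difference could not pass the adjustment, so these tests cannot show that ratios were equal.

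ATP8 was low in all libraries of 1 animal. This was chosen after its values were seen, sets 1 swine beside the other 2, and is given as a description with no test. In the 20 micro-EMB libraries of swine 5385 the log2 ratio of ATP8 to COX1 had a median of -8.54 (-9.06 to -6.96). It had a median of -4.15 (-5.22 to -3.71) in the 21 libraries of swine 1640 and of -4.02 (-5.27 to -3.33) in the 21 of swine 1644. Swine 5385 thus did not overlap with the others. Its mean log2 ratio differed from theirs by -4.27, which is a 19.3-fold lower ratio. Whether ATP8 transcripts were fewer or their reads were lost in alignment or counting was not tested. Blood showed the same, with -8.31 in the 7 libraries of swine 5385 (-9.44 to -6.30), -4.21 in the 7 of swine 1640 (-4.77 to -3.68) and -4.23 in the 8 of swine 1644 (-4.62 to -3.73), a difference of 13.5-fold. The difference was 22.3-fold in micro-EMB and 19.1-fold in blood without even and dominated libraries, and 12.6-fold and 8.401-fold in the even ones alone. The ATP8 levels themselves had medians of 22.6 CPM in micro-EMB of swine 5385, 419.9 CPM in swine 1640 and 151.3 CPM in swine 1644. These levels overlapped, with 4.57 to 35.6 CPM in swine 5385 and lowest values of 29.7 CPM in swine 1640 and 7.19 CPM in swine 1644. ATP8 had 16 to 266 counts in the micro-EMB libraries of swine 5385 and 5 to 27 in its blood libraries, so its ratios there rest on few reads. Without even and dominated libraries, the ratios of the other 4 members to COX1 overlapped between the swine in micro-EMB. In blood, with 4 such libraries a swine, the log2 ratio of CYTB to COX1 was -1.54 to -1.12 in swine 5385, -1.85 to -1.56 in swine 1640 and -1.89 to -1.62 in swine 1644, so swine 5385 did not overlap with the others there. The ratio of ATP6 was -1.27 to -1.02, -1.39 to -1.27 and -1.50 to -1.36 in the same order. In a fit with group and swine as terms, ATP8 was lower in swine 5385 by 3.75 on the log2 scale (SE 0.51) in micro-EMB and by 5.06 (SE 0.98) in blood. In that fit the other 5 members had log2 differences of 0.39 to 0.81 in micro-EMB and of -1.22 to -0.47 in blood. ATP6, which shares 43 bases with ATP8, was at 0.54 (SE 0.40) in micro-EMB. In the comparisons of groups, which had no swine term, the SEs of ATP8 were the largest of the 6.

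Other genes differed between swine 5385 and the others as well. In the fit with group and swine as terms, 96 of 22611 genes were called in micro-EMB with all libraries. Without even and dominated libraries it was 2661 of 18097 (14.7%), with CYTB and the complex I genes ND4 and ND4L among them. In blood it was 3 of 23197 and 14 of 18956. These calls rest on a single animal and are given as a description. The erythroid markers were among the values that moved with swine 5385 in micro-EMB. The erythroid markers summed to 661 to 5897 CPM in its micro-EMB libraries (median 3429), to 15.9 to 157.4 CPM in those of swine 1640 and to 7.28 to 174 CPM in those of swine 1644. Of the 5 erythroid markers found, HBB, the beta chain of haemoglobin, carried this with a log2 difference of 6.63 (SE 0.30). AHSP was at -0.62 (SE 0.62) and SLC4A1, the anion exchanger of red cells, at -0.51 (SE 0.47). ALAS2, an enzyme of haem synthesis in red cell precursors, and HBM, a minor globin, were at 0 counts in every micro-EMB and blood library. These markers are named after their values were seen. In blood, HBB differed by 0.02 (SE 0.92) between swine 5385 and the others, where ATP8 was low as well. The part of red cells in the micro-EMB values was not tested.

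**Figure D5:**
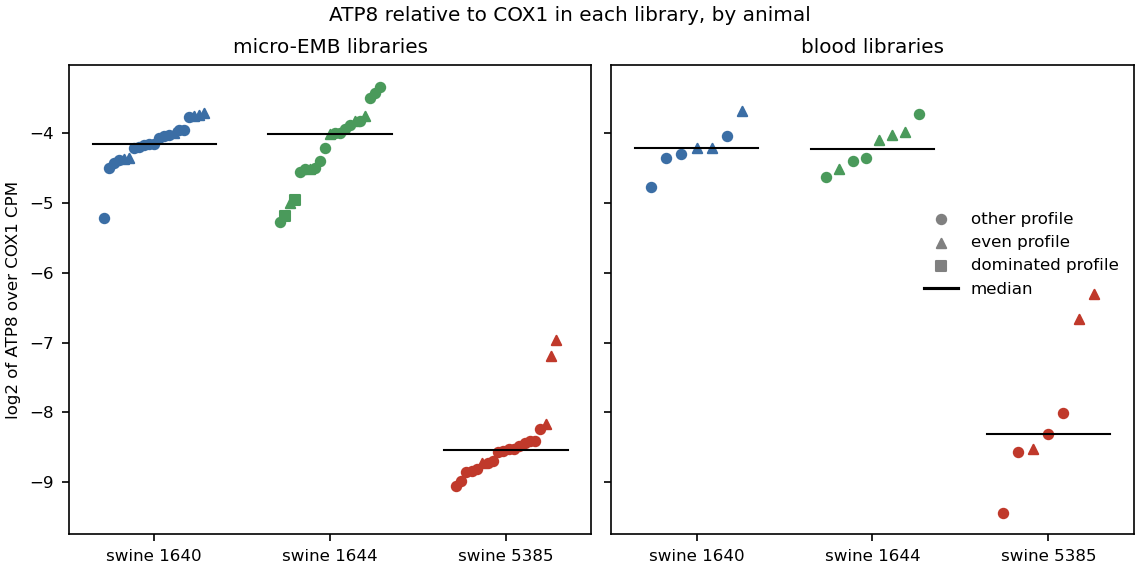
Log2 ratio of the CPM of ATP8 to that of COX1 (vertical axis) in each micro-EMB and blood library, grouped by swine and sorted by value within a swine, with the profile as the shape and a line at the median. All libraries of swine 5385 lie between -9.44 and -6.30, below all libraries of swine 1640 and 1644, which lie between -5.27 and -3.33.

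The nuclear genome encodes the other subunits of the same complexes, and these were counted as lists. Identifiers were found for 10 of 14 nuclear COX subunits, 9 of 15 of the ATP synthase, 7 of 9 of complex III and all 11 genes of mitochondrial transcription and RNA handling. In the 15 comparisons within myocardium or within blood, no gene of these lists and none of the 7 mitochondrial complex I genes was called, with all libraries or without the even and dominated ones. In the infarcted region at 1–3 h the smallest p among the COX subunits was that of COX8A (log2 fold change -1.15, SE 0.63, adjusted p = 0.689). Among the genes of transcription it was that of TFB2M, a factor that lets the mitochondrial polymerase start (1.27, SE 0.42, adjusted p = 0.181). COX6A1 was at -0.68, COX6A2, the muscle form of that subunit, at -0.45, MTERF1 at -0.90 and LRPPRC, which stabilises mitochondrial mRNAs, at 0.95. The ATP synthase genes ATP5PB, ATP5F1C and ATP5MC3 were at 0.20 to 0.35 and the complex III genes UQCRC2, UQCRC1 and UQCRFS1 at 0.19 to 0.24. The median of the ATP synthase list was 0.17, that of complex III 0.13, that of the 6 members 0.46 and that of all genes 0.07.

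Genes of the nuclear lists were called between myocardium and blood, and differences between the lists were not tested. At baseline, 3 of 9 COX subunits, 4 of 8 ATP synthase genes and 6 of 6 complex III genes tested were called higher in myocardium, with median log2 fold changes of 2.28, 2.75 and 3.24, beside 4.13 for the 6 members, 4.27 for the mitochondrial complex I genes and -0.28 for all genes, of which 6.13% were called higher. At 14 days, 2 of 8 ATP synthase genes and 2 of 6 of complex III were called higher, beside 10.3% of all genes. COX8A (log2 fold change -1.78, adjusted p = 0.0460) and COX6A1 (-1.75, adjusted p = 0.0208) were called lower in myocardium, and none of the other 7 COX subunits was called. Without the even and dominated libraries, 8 of 8 ATP synthase genes, 6 of 6 of complex III and 5 of 8 COX subunits were called higher at 14 days, beside 21.3% of all genes, and the same 2 COX subunits lower. COX6A1 is the form of the subunit in most tissues, and COX6A2, higher at 14 days in that fit (log2 fold change 1.55, adjusted p = 0.0136), the form in heart and skeletal muscle. Of the 11 genes of transcription and RNA handling, PPARGC1A, a coactivator of mitochondrial biogenesis, was higher in myocardium at 1–3 h (2.91), 2 days (3.45) and 14 days (4.08). GABPA, a factor of nuclear genes for mitochondria, was lower at 14 days (-1.04), and the other 9 were not called at any of the 4 timepoints. COX6A2 in the smaller fit, PPARGC1A and GABPA are named after their values were seen.

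Leaving out the mitochondrial protein-coding genes, the genes whose levels followed the 6 members most closely were found by Pearson's r with the mean log2 CPM of the 6. Over the 62 micro-EMB libraries, which share the 3 swine and the classes above, they were TPM1 (r = 0.923), a tropomyosin of the thin filament, SLC25A3 (0.919), the phosphate carrier of the mitochondrion, CAVIN2 (0.918), IDH2 (0.916), an enzyme of the mitochondrial matrix, and ATP5F1D (0.915) of the ATP synthase. Without the even and dominated libraries, over 45, the 5 were ENSSSCG00000018061 (0.856), TPM1 (0.830), TRIM63 (0.829), ENSSSCG00000040643 (0.825) and APOBEC2 (0.824). The tables used here pair neither identifier with a name or a place. ENSSSCG00000018061 stands in the same run of identifiers as the 6 members, so that it may be encoded in the mitochondrion as well. TPM1 was among the 5 in both sets. Of the members, COX1, COX2, ATP6, COX3 and CYTB had an r of 0.955 to 0.986 with their mean over the 62 libraries, and ATP8 of 0.719.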

How the data were processed

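Total RNA of micro-EMB and blood was made into stranded total-RNA libraries. The authors aligned the reads with STAR to Sscrofa11.1 and counted them per gene with featureCounts, and deposited whole-number counts for 31907 genes, which were used as they are. Per the file headers the counting did not use strand, so a gene and a transcript on the opposite strand cannot be told apart. Settings for reads that fit several genes or places are not given in the sources used here.

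Groups came from the labels, and 1 of 85 libraries, under 10% of the median total, was left out of tests. Totals are whole-library depth, and the precision of a share follows from them as a 95% Wilson interval. The tests were edgeR 4.0.16 quasi-likelihood tests in R 4.3.3 with TMM scaling, genes of at least 1 CPM in 20% of libraries, and Benjamini-Hochberg adjustment over all genes at a threshold of 0.05. There were 5 fits, for the infarcted region, the non-infarcted region, both regions, blood and both tissues, with 19 comparisons. The fits of the infarcted region and of both tissues were also run on simulated counts, for a comparison each. The other fits were not. The ratios used a prior count of 0.5. Nuclear windows were searched with blastn 2.17.0. Gene names were found for 15029 identifiers, and markers for 9 of 12 cardiomyocyte, 8 of 9 leukocyte, 6 of 6 fibroblast, 4 of 5 endothelial and 5 of 6 erythroid genes.

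The members, lists and tests were chosen with earlier results of these data known. The text names the 6 members, from each nuclear list the 3 genes with the smallest p at 1–3 h in the infarcted region, and the 5 genes most like the members. Other names were chosen after their values were seen. The labels give the swine of each library, which pairs libraries of an animal. Deviations from group means correlated with a median r of 0.160 within and -0.028 between swine in micro-EMB, and of -0.206 and -0.135 in blood (0.0953 and -0.0443, and 0.165 and -0.00978, without even or dominated libraries). Alternatives were RLE scaling, library totals without scaling, no filter, DESeq2 1.42.0, limma-voom (limma 3.58.1), the swine as a block, sums per swine, libraries left out, and the libraries that the study listed for its deconvolution. The block without even or dominated libraries, library totals without them, the difference between tissues of the changes from baseline, the permutations within swine and the swine comparison were added after seeing the data.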

Additional observations from a re-analysis of the deposited data

Results flagged for a closer look

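In 2 blood groups, 1 library lay far from the other 5, by the ratio of its gap to the range of the group. Of 77 pairs of a group and a measure tested, 12 were flagged, all in these libraries. The infarcted region at 1–3 h (11 libraries) and the non-infarcted region at 0–1 h (3 libraries) were not screened because of their group sizes. For a single measure, chance flags about 1 in 20 groups. The measures were the 6 genes and their summed share, which move together in a library, so the 12 flags are not independent. At baseline the sixth replicate, of swine 1644, was high, and it was the 1 library of the group that was not even (its 10 top genes held 9.30% of its counts). Its 6 genes held 0.444% of the counts beside 0.0476% to 0.0696% in the others. COX1 was at 1757.5 CPM (others 89.4 to 204.96), COX2 at 718 CPM (64.4 to 102), ATP6 at 686 CPM (118.6 to 144.9), COX3 at 624 CPM (65.1 to 95.5) and CYTB at 572 CPM (134.4 to 184). At 14 days the third replicate, also of swine 1644, was low, and it was the 1 even library of the group (1.40% in its 10 top genes). Its 6 genes held 0.0581% of the counts beside 0.333% to 0.491% in the others. COX1 was at 153.1 CPM (others 1338 to 2019), COX2 at 85.3 CPM (485 to 763), ATP6 at 124.004 CPM (554 to 811), COX3 at 68.9 CPM (469 to 674) and CYTB at 140.4 CPM (459 to 683). ATP8 was flagged in neither library.

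The blood library of 2 days that was left out of the tests (replicate 5, swine 1640, 11505 counts) held 140 counts of the 6 genes. This is a share of 1.22% (95% Wilson interval 1.03% to 1.43%), above the highest blood baseline value of 0.444%. Its cardiomyocyte markers summed to 20513 CPM and its leukocyte markers to 348 CPM.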

How the results depend on the processing

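Within myocardium, 0 of 6 members were called in each of the 12 comparisons under all alternatives run. Within blood, DESeq2 called 5 of 6 at 14 days, and leaving out a library or swine gave 0 to 5 of 6 at 1–3 h, 0 to 6 at 2 days and 0 to 6 at 14 days, with the highest values without swine 1644, beside 15.8%, 39.4% and 70.1% of all genes. Between myocardium and blood the members were higher in myocardium in every alternative, with log2 fold changes of at least 0.89, but the calls (5, 5, 1 and 3 of 6 at baseline, 1–3 h, 2 days and 14 days) moved. Without the even and dominated libraries they were 0 at baseline, 5 at 2 days and 5 at 14 days. With RLE scaling and with library totals alone they were 5 at 2 days and 5 at 14 days each, and with DESeq2 5 and 6. With limma-voom they were 5 at 14 days, and with sums per swine 0 at 2 days. With library totals and without the even and dominated libraries they were 1 at baseline, 5 at 2 days and 5 at 14 days. Leaving out a library or swine gave 0 to 6 of 6 at baseline, 0 to 4 at 1–3 h, 0 to 1 at 2 days and 0 to 2 at 14 days. In the same order these stood beside 0% to 15.8%, 2.72% to 12.6%, 4.01% to 19.3% and 8.84% to 25.0% of all genes. At 1–3 h, 1 was called without swine 1644, 1 without swine 5385 and 2 without blood replicate 1, 3, 4 or 5. At 14 days, 1 was called without swine 1640. Under the alternatives without leave-outs, 8.21% to 31.2% of all genes were called at 1–3 h. At 2 days it was 14.6% to 44.4% and at 14 days 18.1% to 43.4%. The cause of the moves in the members' calls was not tested.

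With the swine as a replicate block, 6, 5, 1 and 4 of 6 were called, beside 5.65%, 11.4%, 15.8% and 22.9% of all genes. Beside ATP8 at baseline, 1–3 h and 14 days and COX1 at 1–3 h, the block changed no other call. The block without the even and dominated libraries gave 0 at baseline and 6 at each later time, beside 14.3%, 25.7%, 40.2% and 42.0% of all genes, and ATP8 was then called at 2 days (log2 fold change 2.81, adjusted p = 8.47e-05).

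Scaling by library totals moved the median log2 fold change of all genes from -0.11, -0.29 and -0.51 to -0.47, -1.02 and -1.25 in blood at 1–3 h, 2 days and 14 days. Between the tissues it moved from -0.28, -0.24, 0.08 and -0.12 to -1.36, -0.47, 0.32 and -0.17. The share of calls over all genes that were higher in myocardium was 95.9%, 56.6%, 43.6% and 46.1%, under RLE 95.6%, 57.7%, 54.7% and 50.9%, and under library totals 45.4%, 23.6%, 27.7% and 33.5%. The share of all genes called was 0.471% in the infarcted region at 1–3 h, 0% at 2 days and 0.0799% at 14 days, and under the alternatives without leave-outs reached 3.32%, 0.550% and 0.333%, all with DESeq2, and went down to 0%. The number of genes called ranged over those alternatives from 0 to 42 between regions at 1–3 h (3), 0 to 3392 in blood at 14 days (0), and 487 to 3234, 1836 to 5761, 3259 to 8183 and 4052 to 8006 between tissues (1463, 2686, 3676 and 5123). The ratios between genes passed in 0 of 60 tests in all settings, permutations within swine among them. Where groups were small, the smallest p that a permutation could give kept a lone test from passing.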
